A study of Rattus norvegicus with 29 samples.

Results

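The genes described here make up the vitamin K cycle of rat liver and the clotting proteins that depend on it. They were taken as every row of the deposited array table whose only gene symbol in the platform annotation was one of 10 names: the cycle enzymes Ggcx, Vkorc1 and Vkorc1l1, and the carboxylated clotting proteins F2, F7, F9, F10, Proc, Pros1 and Proz. Of the 10 names, 9 had a row, 1 each, among 14324 distinct symbols named in this way: 3 enzymes and 6 carboxylated proteins. F9 (clotting factor IX) had no such row and was not analysed here.

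Male Crl:CD Sprague-Dawley rats, 6 to 7 weeks old, were dosed daily by oral gavage with PMCol (2,2,5,7,8-pentamethyl-6-chromanol), a chromanol built on the ring of vitamin E without its long tail, or with the vehicle alone, methylcellulose at 1%. The groups were 2000 mg/kg at day 8 (6 animals) with its vehicle (6 animals), both after 7 daily doses, and 2000 mg/kg (5 animals), 200 mg/kg (6 animals) and vehicle (6 animals) at day 29, after 28 daily doses. RNA of the left liver lobe of each of the 29 animals was measured on 1 Affymetrix whole-transcript array. The labels describe the animals as biological replicates.

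Vitamin K-dependent clotting proteins are made in hepatocytes and carry glutamate residues that the gamma-glutamyl carboxylase Ggcx, an enzyme of the endoplasmic reticulum, converts to gamma-carboxyglutamate, which lets them bind calcium and phospholipid membranes. Each carboxylation oxidises vitamin K hydroquinone to the epoxide. The epoxide reductase Vkorc1, which warfarin blocks, and its paralog Vkorc1l1 return the epoxide to the reduced forms, so the cycle can turn again.

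Values are the log values as deposited, taken as log2, in which every row has a median of 0 over the 29 animals. So 0 is a gene's own middle, and the level of one gene cannot be set against that of another. Changes are differences of group means on that scale with their standard errors, and a gene is said to have risen or fallen where limma's test, adjusted by Benjamini and Hochberg over all 27342 rows, gave a p under 0.05. The array of vehicle animal 1 of day 29 stood apart from the rest: its median absolute deviation from its group mean was 0.116 over all rows, against 0.0524 to 0.0862 in the other 28 arrays, so day 29 results that rest on it are also given without it. Median values of the arrays lay between −0.023 and 0.029. The highest correlation between any pair of arrays was 0.725. In bulk liver, fewer cells of a type and less RNA per cell cannot be told apart. Vkorc1 and Vkorc1l1 are paralogs, and whether their probes share target sequence was not tested.

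The promoters show what recognition letters lie upstream of the genes of the set. Of the 5 printed, Ggcx and Vkorc1l1 are the enzymes that rose at 2000 mg/kg, Vkorc1 is the enzyme that was not called, and F2 and Proc are the carboxylated proteins with the lowest adjusted p. Each is the 250 bases before the transcript start used in the RefSeq promoter table for GRCr8, read on the gene's strand: Ggcx chr4:106027689-106027938 (plus), Vkorc1l1 chr12:32404227-32404476 (minus), Vkorc1 chr1:191935491-191935740 (minus), F2 chr3:98065247-98065496 (minus) and Proc chr18:24048942-24049191 (minus). The annotated gene can reach further upstream than that start: the last 21 bases of the Ggcx window, 101 of the Vkorc1l1 window and 120 of the Proc window lie inside the gene as annotated, and 0 of the windows of Vkorc1 and F2. Capitals mark matches on either strand to one of 4 searched motifs: TGACNNNGC (the core of the antioxidant response element), CAAAGTCCA (an HNF4 site), GTTAAT (an HNF1 half-site) and TTGCNNAA (a CEBP site).
Ggcx: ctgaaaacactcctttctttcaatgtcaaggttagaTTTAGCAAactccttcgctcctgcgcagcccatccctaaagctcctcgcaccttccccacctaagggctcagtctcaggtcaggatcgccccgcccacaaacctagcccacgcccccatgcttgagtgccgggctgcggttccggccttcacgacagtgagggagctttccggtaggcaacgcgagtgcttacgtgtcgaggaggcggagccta
Vkorc1l1: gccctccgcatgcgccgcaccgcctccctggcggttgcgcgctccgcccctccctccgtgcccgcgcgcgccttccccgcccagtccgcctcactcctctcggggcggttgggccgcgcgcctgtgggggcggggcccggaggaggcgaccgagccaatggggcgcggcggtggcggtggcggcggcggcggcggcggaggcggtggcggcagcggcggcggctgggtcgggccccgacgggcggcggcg
Vkorc1: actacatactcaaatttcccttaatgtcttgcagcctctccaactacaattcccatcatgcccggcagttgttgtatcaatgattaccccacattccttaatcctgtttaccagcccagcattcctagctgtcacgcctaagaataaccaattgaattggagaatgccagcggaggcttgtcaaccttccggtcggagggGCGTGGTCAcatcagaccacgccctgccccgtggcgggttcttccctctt
F2: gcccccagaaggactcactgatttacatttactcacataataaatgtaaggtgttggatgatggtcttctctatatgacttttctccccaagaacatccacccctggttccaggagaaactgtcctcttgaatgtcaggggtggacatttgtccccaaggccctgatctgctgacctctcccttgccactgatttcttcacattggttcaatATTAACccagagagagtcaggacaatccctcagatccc
Proc: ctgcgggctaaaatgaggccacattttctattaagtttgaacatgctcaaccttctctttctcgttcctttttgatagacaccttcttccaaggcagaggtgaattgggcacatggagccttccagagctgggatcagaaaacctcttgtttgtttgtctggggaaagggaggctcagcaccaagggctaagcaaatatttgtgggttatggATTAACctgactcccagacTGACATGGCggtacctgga

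The capitals are a CEBP match in Ggcx, an antioxidant response element core in Vkorc1, an HNF1 half-site in F2 and, in Proc, an HNF1 half-site followed by an antioxidant response element core. In F2 and in Proc the HNF1 half-site lay at the same distance, 38 to 33 bases before the start used in that table, which in Proc is inside the gene as annotated. The windows of F7, Proz and Pros1 also overlap their annotated genes, by 37, 69 and all 250 bases. Over all 10 genes, the antioxidant response element core was found in 1 of 3 enzymes and 1 of 7 carboxylated proteins, where 10.1% of 33469 rat promoters of that length hold it. The HNF1 half-site was found in 0 of 3 enzymes and 2 of 7 carboxylated proteins (6.45% of all promoters), the CEBP site in 1 of 3 and 2 of 7 (9.22%), and the HNF4 site in 0 of 3 and 1 of 7 (0.338%), the last in Proz. The motifs do not overlap one another in these windows, and a match describes letters only. The genes Proz, F10 and F7 are neighbours and follow one another on chromosome 16 (GRCr8), with 5284 bases between Proz and F10 and 1615 bases between F10 and F7.

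At 2000 mg/kg for 7 doses, the carboxylase Ggcx and the reductase Vkorc1l1 rose while 5 of the 6 carboxylated proteins fell. At 28 doses the same enzymes rose and 4 carboxylated proteins fell. Vkorc1, the reductase that warfarin blocks, was not called on either day. At day 8, 7 of the 9 genes were called where 18.6% of all rows were (9.32% higher, 9.32% lower). At day 29, 6 of 9 were called where 21.6% of all rows were (12.1% higher, 9.55% lower).

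**Figure D1:**
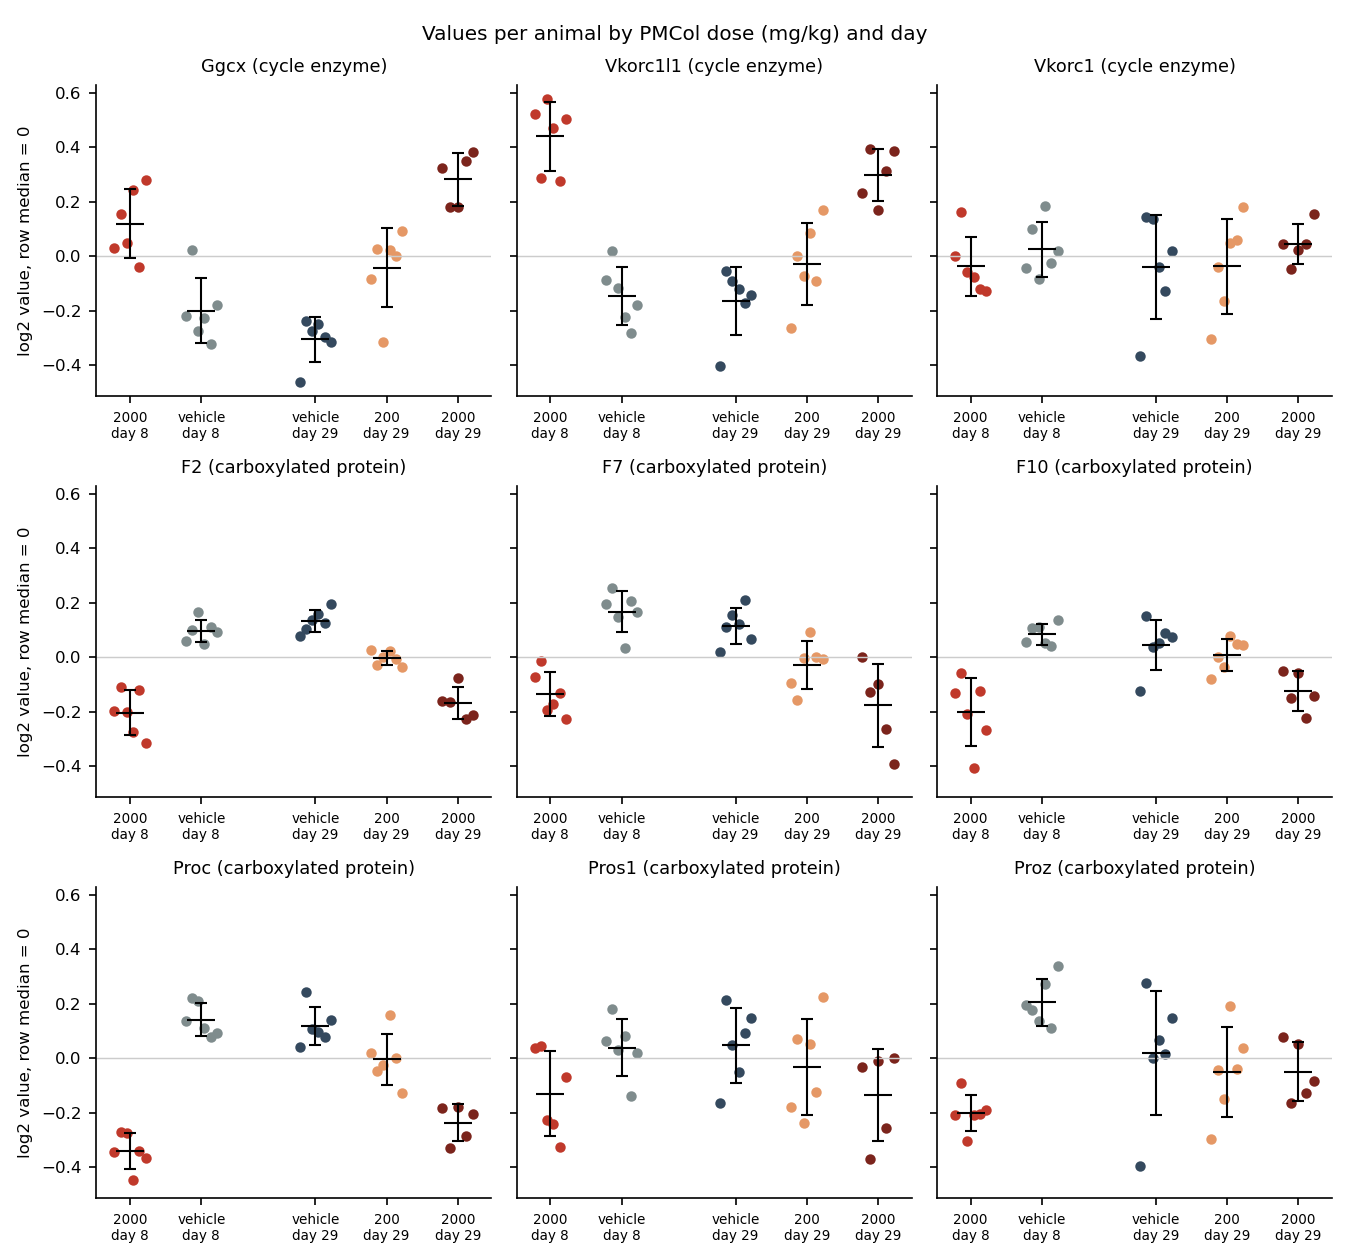
Log2 values (row median 0) of the 9 measured genes in each animal, by PMCol dose in mg/kg and day; dots are animals, and black marks with bars are group means ± SD (n = 5 for 2000 mg/kg at day 29, n = 6 for the others). Vkorc1l1 of the 2000 mg/kg animals lies above every vehicle animal on both days, and F2 and Proc lie below every vehicle animal on both days.

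Ggcx, the enzyme that every carboxylated protein of the set needs, rose at 2000 mg/kg on both days. At day 29 its values were 0.32, 0.18, 0.18, 0.35 and 0.38 in the animals given 2000 mg/kg, against a lowest of −0.46, a median of −0.29 and a highest of −0.24 in the vehicle animals. The groups did not overlap, and the change was 0.59 ± 0.070 (SE), a 1.50-fold increase (adjusted p = 3.38e-07, limma). Without vehicle animal 1, the lowest of its group, the change was 0.56 (adjusted p = 1.41e-06). At day 8 the values at 2000 mg/kg had a lowest of −0.039, a median of 0.10 and a highest of 0.28, against −0.32, −0.22 and 0.021 in the vehicle animals. One vehicle animal, at 0.021, lay within the range of the dosed animals, and the change was 0.32 ± 0.066 (SE), or 1.25-fold (adjusted p = 0.000743, limma).

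Vkorc1l1, the paralog that also reduces the epoxide, was separated from the vehicle on both days. At day 8 its values at 2000 mg/kg had a lowest of 0.28, a median of 0.49 and a highest of 0.58, against −0.28, −0.15 and 0.021 in the vehicle animals. At day 29 the values at 2000 mg/kg were 0.23, 0.39, 0.17, 0.31 and 0.39, against a lowest of −0.40, a median of −0.13 and a highest of −0.056 in the vehicle animals. Neither day's groups overlapped. Vkorc1l1 rose by 0.59 ± 0.070 (SE) at day 8, or 1.50-fold (adjusted p = 4.15e-07, limma), and by 0.46 ± 0.073 at day 29, or 1.38-fold (adjusted p = 2.49e-05, limma). Without vehicle animal 1 of day 29, which was again the lowest of its group, the day 29 change was 0.42 (adjusted p = 7.85e-05).

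Vkorc1 was the enzyme whose groups overlapped in every comparison. At day 29 its values were 0.044, −0.049, 0.022, 0.045 and 0.16 at 2000 mg/kg, against a lowest of −0.37, a median of −0.010 and a highest of 0.14 in the vehicle animals. The vehicle animals spanned the dosed ones except for the highest. The change was −0.062 at day 8, with a 95% interval of −0.22 to 0.098 (adjusted p = 0.667, limma), and 0.084 at day 29, with an interval of −0.084 to 0.25 (adjusted p = 0.534). Without vehicle animal 1 of day 29, the lowest of its group, the day 29 change was 0.018 (adjusted p = 0.91, limma). The upper ends of both intervals lie below the changes measured for Vkorc1l1, but the difference between the paralogs was not tested.

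**Figure D2:**
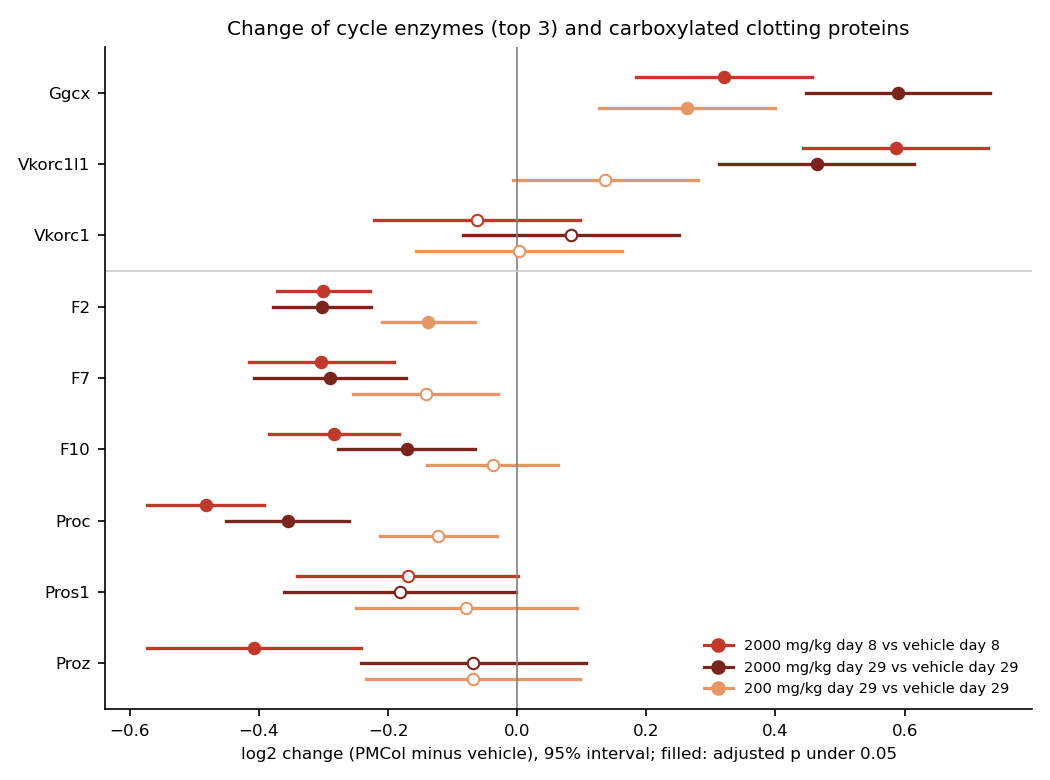
Log2 change, PMCol minus vehicle, of the 3 cycle enzymes and the 6 measured carboxylated proteins, with 95% intervals, for 2000 mg/kg at day 8, 2000 mg/kg at day 29 and 200 mg/kg at day 29; filled points have an adjusted p under 0.05. Ggcx and Vkorc1l1 lie right of 0 and the carboxylated proteins left of it, with 7, 6 and 2 of 9 points filled.

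Among the clotting zymogens, F2 (prothrombin, the precursor of thrombin) had the smallest standard error in the fit at 2000 mg/kg. At day 29 its values were −0.16, −0.16, −0.078, −0.23 and −0.21 at 2000 mg/kg, against a lowest of 0.079, a median of 0.13 and a highest of 0.20 in the vehicle animals. At day 8 they had a lowest of −0.32, a median of −0.20 and a highest of −0.11 at 2000 mg/kg, against 0.049, 0.097 and 0.17 in the vehicle animals. All 11 dosed animals were below all vehicle animals of their day. F2 fell by 0.30 on both days, with standard errors of 0.035 at day 8 and 0.037 at day 29 (adjusted p = 3.08e-07 at day 8 and 5.47e-07 at day 29, limma). Without vehicle animal 1 of day 29, the day 29 change was −0.31 (adjusted p = 7.2e-07, limma).

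F7, the protease that tissue factor activates to start clotting, and F10, the protease that converts prothrombin, lie side by side in the genome and both fell. F7 at day 8 had a lowest of −0.23, a median of −0.15 and a highest of −0.014 at 2000 mg/kg, against 0.036, 0.18 and 0.25 in the vehicle animals, and it fell by 0.30 ± 0.055 (adjusted p = 0.000154, limma). At day 29 it fell by 0.29 ± 0.057 (adjusted p = 0.000391), with the highest dosed animal at 0 and a lowest vehicle animal at 0.019. Without that lowest vehicle animal, again animal 1, the change of F7 was −0.31 (adjusted p = 0.000338, limma). F10 at day 8 had a lowest of −0.41, a median of −0.17 and a highest of −0.060 at 2000 mg/kg, against 0.042, 0.082 and 0.14 in the vehicle animals. Its groups were apart at day 8, where it fell by 0.28 ± 0.049 (adjusted p = 9.76e-05, limma). At day 29 the groups overlapped only through vehicle animal 1, at −0.12. The fall of 0.17 ± 0.052 (adjusted p = 0.0168) was no longer called without animal 4 of the 2000 mg/kg group (adjusted p = 0.062). Without vehicle animal 1 the change was −0.21 (adjusted p = 0.00337).

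The anticoagulant side of the set was led by Proc, protein C, which once activated cuts clotting factors V and VIII. Its values at day 8 had a lowest of −0.45, a median of −0.34 and a highest of −0.27 at 2000 mg/kg, against 0.079, 0.12 and 0.22 in the vehicle animals. At day 29 they were −0.18, −0.33, −0.18, −0.29 and −0.20 at 2000 mg/kg, against a lowest of 0.041, a median of 0.10 and a highest of 0.24 in the vehicle animals. No animals of the dosed and vehicle groups overlapped on either day. Proc fell by 0.48 ± 0.044 (SE) at day 8, 1.40-fold lower than the vehicle (adjusted p = 4.01e-09, limma), and by 0.36 ± 0.046 at day 29, 1.28-fold lower (adjusted p = 1.58e-06). Without vehicle animal 1 of day 29, the day 29 change of Proc was −0.37 (adjusted p = 1.88e-06, limma). Its day 8 change was the furthest from 0 among the 6 carboxylated proteins.

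Pros1, protein S, the cofactor of activated protein C, was not called in any comparison. Its differences were −0.17 ± 0.084 at day 8 (adjusted p = 0.178, limma) and −0.18 ± 0.088 at day 29 (adjusted p = 0.151), and the dosed and vehicle animals overlapped on both days. At day 29 its values were between −0.37 and 0 at 2000 mg/kg and between −0.17 and 0.21 in the vehicle animals. Without vehicle animal 1, the lowest of its group, the day 29 change was −0.22 and still not called (adjusted p = 0.0757, limma).

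Proz, protein Z, which helps the serpin encoded by Serpina10 to inhibit activated factor X, was called at day 8 and not at day 29. At day 8 its values had a lowest of −0.30, a median of −0.21 and a highest of −0.090 at 2000 mg/kg, against 0.11, 0.19 and 0.34 in the vehicle animals. The groups did not overlap and the fall was 0.41 ± 0.081 (SE; adjusted p = 0.000475, limma). At day 29 the values lay between −0.16 and 0.076 at 2000 mg/kg and between −0.40 and 0.28 in the vehicle animals, whose lowest was again animal 1. The day 29 change was −0.068 ± 0.085 (adjusted p = 0.643), and −0.15 without that animal (adjusted p = 0.142). The difference between the 2 days' changes, 0.34 ± 0.12, was tested and not called (adjusted p = 0.169).

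As a group, the 6 carboxylated proteins had a median change of −0.30 at day 8 and −0.24 at day 29, beside −0.0049 and 0.0025 over all rows. All 6 were below 0 on both days. Dosed and vehicle animals did not overlap for 6 of the 9 genes at day 8, where 11.0% of all rows did not, and for 5 of 9 at day 29, where 11.4% did not.

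Set against its substrates within each animal, Ggcx minus the mean of the 6 carboxylated proteins was 0.32 ± 0.16 (SD, n = 6) in the 2000 mg/kg animals of day 8 and −0.32 ± 0.091 (SD, n = 6) in their vehicle animals. At day 29 it was −0.39 ± 0.045 (SD, n = 6) in the vehicle animals, −0.025 ± 0.12 (SD, n = 6) at 200 mg/kg and 0.43 ± 0.14 (SD, n = 5) at 2000 mg/kg. The day 29 animals lay between −0.44 and −0.32 with vehicle, between −0.24 and 0.069 at 200 mg/kg and between 0.24 and 0.58 at 2000 mg/kg. The 3 groups did not overlap, in the order of the dose. A difference of this kind is taken within an array, so a factor common to all rows of an array drops out of it. Vkorc1l1 minus the same mean was between −0.31 and −0.17 in the vehicle animals of day 29, between −0.16 and 0.15 at 200 mg/kg and between 0.23 and 0.61 at 2000 mg/kg. For Vkorc1 the ranges overlapped between neighbouring doses: −0.28 to 0.056, −0.20 to 0.16 and 0.085 to 0.33 in the same order. These differences are given as descriptions, with no test.

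**Figure D3:**
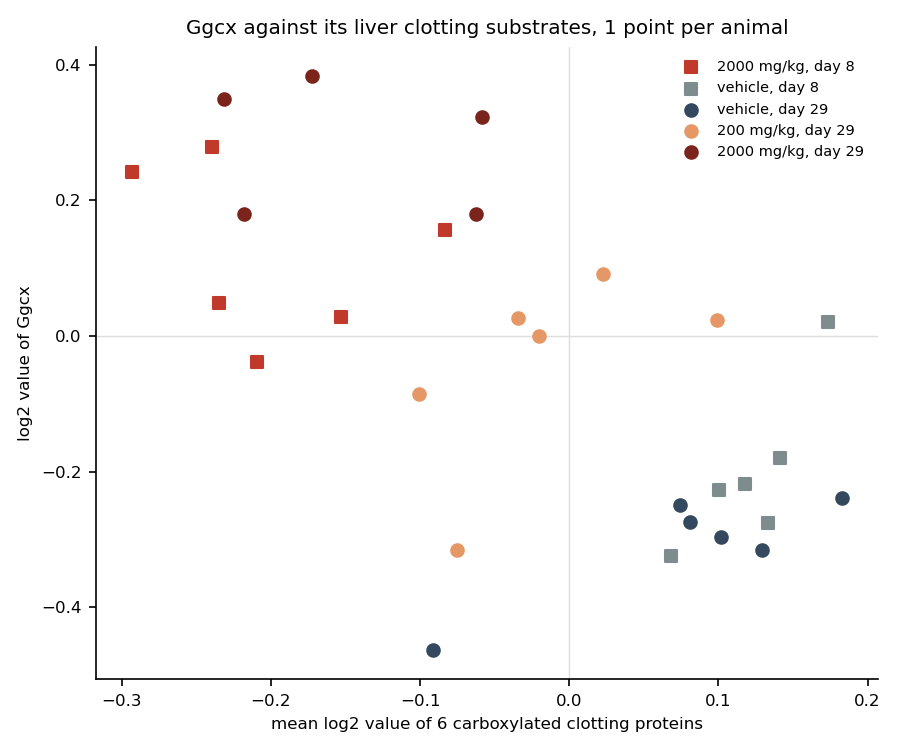
Log2 value of Ggcx (vertical axis) against the mean log2 value of the 6 measured carboxylated clotting proteins (horizontal axis), 1 point per animal, by group. Along the horizontal axis the 2000 mg/kg and vehicle animals of day 8 do not overlap. The ranges of the day 29 groups overlap there, those of vehicle and 2000 mg/kg only through vehicle animal 1, at −0.091. At day 29 the vertical minus the horizontal value lies between −0.44 and −0.32 for vehicle, −0.24 and 0.069 for 200 mg/kg and 0.24 and 0.58 for 2000 mg/kg.

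The dose of 200 mg/kg at day 29 called 2 of the 9 genes, Ggcx higher and F2 lower, where 2.78% of all rows were called (1.37% higher, 1.42% lower). Ggcx at 200 mg/kg had a lowest of −0.32, a median of 0.012 and a highest of 0.092. Of these 6 animals, 5 were above every vehicle animal, and the change was 0.26 ± 0.066 (SE; adjusted p = 0.0261, limma). F2 at 200 mg/kg lay between −0.036 and 0.028, below all 6 vehicle animals, and fell by 0.14 ± 0.035 (adjusted p = 0.0281). F2 was the 1 gene of the 9 whose 200 mg/kg and vehicle groups did not overlap, which held for 1.51% of all rows. Neither call was firm. Without vehicle animal 1, the difference in Ggcx was 0.23 (adjusted p = 0.0613) while F2 stayed called (adjusted p = 0.0224), and neither gene was called when vehicle animal 6, or 200 mg/kg animal 2, 5 or 6, was left out. F2 alone lost its call without vehicle animal 4 (adjusted p = 0.0553), and Ggcx alone without 200 mg/kg animal 4 (adjusted p = 0.0624). The other 7 genes had adjusted p of 0.16 to 0.995. The difference was 0.14 ± 0.070 for Vkorc1l1 (adjusted p = 0.4), −0.12 for Proc (adjusted p = 0.16) and 0.0028 for Vkorc1, with an interval of −0.16 to 0.16. The median of the 6 carboxylated proteins was −0.10, beside 0.0033 over all rows.

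The 2 doses of day 29 were also compared with each other. Ggcx was higher at 2000 than at 200 mg/kg by 0.33 ± 0.070 (SE; adjusted p = 0.00228, limma), and Vkorc1l1 by 0.33 ± 0.073 (adjusted p = 0.0036). The change of F2 was −0.16 ± 0.037 (adjusted p = 0.00346), and the change of Proc was −0.23 ± 0.046 (adjusted p = 0.00114). For these 4 genes no animal at 2000 mg/kg overlapped any at 200 mg/kg, where 6.12% of all rows were apart and 9.89% were called (6.05% higher, 3.84% lower). F7 and F10 had changes of −0.15 and −0.13 between the doses and were not called (adjusted p = 0.107 and 0.108), although F7 was called without animal 1 of the 2000 mg/kg group (adjusted p = 0.0312), and Proz had 0.0009 (adjusted p = 0.998). In ascending order, the group means of Ggcx were −0.31 ± 0.082 in the vehicle animals of day 29, −0.20 ± 0.12 in those of day 8, −0.043 ± 0.15 at 200 mg/kg, 0.12 ± 0.13 at 2000 mg/kg at day 8 and 0.28 ± 0.10 at 2000 mg/kg at day 29 (all SD). The vehicle groups, which come first in that order, were not told apart by the test (change of day 29 against day 8 −0.11, adjusted p = 0.415), and the ranges of each further pair of neighbours overlapped.

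The days were compared in the vehicle animals and in the effect of the high dose. Between the vehicle animals of day 29 and of day 8, 0 of the 9 genes were called by limma, with 1 at an unadjusted p under 0.05, where 2.73% of all rows were called. The effect of 2000 mg/kg at day 29 minus that at day 8 was called for 0 of the 9, with 2 at an unadjusted p under 0.05, where 0.775% of all rows were called. For Ggcx that difference was 0.27 ± 0.096 (adjusted p = 0.181, limma).

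Other genes of vitamin K handling moved in both directions. Of 16 listed genes, 13 were measured. For this list and those that follow, 18.6% of all rows were called at day 8, 21.6% at day 29 and 2.78% at 200 mg/kg. At 2000 mg/kg 4 rose and 5 fell at day 8, 5 rose and 4 fell at day 29, and at 200 mg/kg 2 rose and 0 fell. Nqo1, a quinone reductase able to reduce vitamin K quinone, was the gene of the list with the highest change: 2.24 ± 0.11 (SE) at day 8, 2.61 ± 0.11 at day 29 and 1.15 ± 0.11 at 200 mg/kg, all called. Its values ran from 1.39 to 1.70 at 2000 mg/kg at day 29, against −1.27 to −0.80 in the vehicle animals. Ephx1, the microsomal epoxide hydrolase, rose by 0.90 and 0.83 at 2000 mg/kg on day 8 and day 29 and by 0.51 at 200 mg/kg. Aifm2, an oxidoreductase that makes vitamin K hydroquinone, rose by 0.44 on each day at 2000 mg/kg, while its change at 200 mg/kg was 0.0048 and not called. The rounding of values matched stored values of 8 or more in 10 of the 13 measured genes of this list, and not in Aifm2 or Nqo1. Calu, a calcium-binding protein of the endoplasmic reticulum reported to inhibit the carboxylase, rose by 0.42 at day 29 and was not called at day 8 (0.25) or at 200 mg/kg (0.085). Its day 29 call was lost without animal 5 of the 2000 mg/kg group (adjusted p = 0.0783), in the fit on only the groups compared (adjusted p = 0.0811) and without both vehicle animals 1 and 2 (adjusted p = 0.0531, chosen after seeing the data). The fit on only the groups compared called it at day 8 (adjusted p = 0.0166).

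On the falling side, Lrp1, a receptor that takes up the lipoprotein remnants in which vitamin K travels, fell by 0.53 at day 8 and by 0.50 at day 29, and was not called at 200 mg/kg (−0.16). Cyp4f1, a member of the cytochrome P450 family whose human members include a vitamin K hydroxylase, fell by 0.53 at day 8 and by 0.23 at day 29. Cyp4f genes are close paralogs, and whether this row separates them was not tested. The day 29 animals at 2000 mg/kg lay between −0.23 and 0.053 for Cyp4f1, against −0.014 to 0.25 in the vehicle animals, and so overlapped, whereas the day 8 animals did not.

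Carboxylated proteins outside clotting were mixed. Of 8 listed, 6 were measured: 1 rose and 1 fell at day 8, 1 rose and 2 fell at day 29, and none was called at 200 mg/kg. Over all rows the called shares at 2000 mg/kg were 18.6% at day 8 and 21.6% at day 29, and the list was not tested against them. The rounding of values matched stored values of 8 or more in 2 of the 6, and not in Prrg2. Prrg2, a membrane protein with a carboxylated domain, rose by 0.49 and 0.60 at 2000 mg/kg on day 8 and day 29. Gas6, a ligand of the receptor tyrosine kinases Axl and Mertk, fell by 0.78 and by 0.49. Mgp, the matrix Gla protein that restrains calcification of soft tissue, was −0.41 and not called at day 8 (adjusted p = 0.051) and fell by 1.01 at day 29. At day 8 it was called lower after quantile normalization (adjusted p = 0.0465), over rows with 1 symbol (adjusted p = 0.0391), in the fit on only the groups compared (adjusted p = 0.00078) and with array weights (adjusted p = 0.0246). Stellate cell markers moved with Mgp at day 29, as given further on, and their part in that result was not tested.

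Among the proteins that bind or oppose the carboxylated factors, 9 of 10 were measured. At day 8, 1 rose and 2 fell, where 18.6% of all rows were called. At day 29, 2 rose and 2 fell, where 21.6% were. C4bpb, the chain of C4b-binding protein that holds protein S in plasma, fell by 0.81 and by 0.77, and its partner chain C4bpa by 0.42 and by 0.27. C4bpb lay between −0.63 and −0.28 at 2000 mg/kg at day 29, against 0.085 to 0.52 in the vehicle animals, without overlap. Tfpi, the inhibitor of the tissue factor pathway, rose by 0.43 and by 0.46. Serpina10, the partner of protein Z, was −0.10 and not called at day 8 and rose by 0.14 at day 29 (adjusted p = 0.0454, limma), a call lost after quantile normalization (adjusted p = 0.0513) and without any of several single animals, such as animal 5 of the 2000 mg/kg group (adjusted p = 0.154). The 200 mg/kg dose called 1 gene of the list, F3 (tissue factor), higher by 0.41 (adjusted p = 0.0417, limma). That call was lost in the fit on only the groups compared (adjusted p = 0.144) and without any 1 of the 6 vehicle animals. The rounding of values matched stored values of 8 or more in 3 of the 9 measured genes of this list, and not in Tfpi or F3.

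Clotting proteins that are not carboxylated fell too. Of 17 clotting and fibrinolysis proteins of the liver without these residues, all measured, 12 fell and 0 rose at day 8 (median −0.23), and 10 fell and 1 rose at day 29 (median −0.33). At 200 mg/kg 0 of the 17 were called, with a median of −0.073. Serpind1, heparin cofactor, fell by 1.22 at day 8 and by 0.75 at day 29. Serpinf2, the plasma inhibitor of plasmin, fell by 0.57 and by 0.35, and F5, the cofactor that protein C cuts, by 0.48 and by 0.44. F11, a zymogen of the contact phase, was not called at day 8 (−0.12) and fell by 0.51 at day 29. Klkb1, prekallikrein, fell by 0.50 and by 0.47. The medians of the 6 carboxylated proteins, −0.30 and −0.24, stood near the medians of these 17 genes, and the difference between the lists was not tested.

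**Figure D4:**
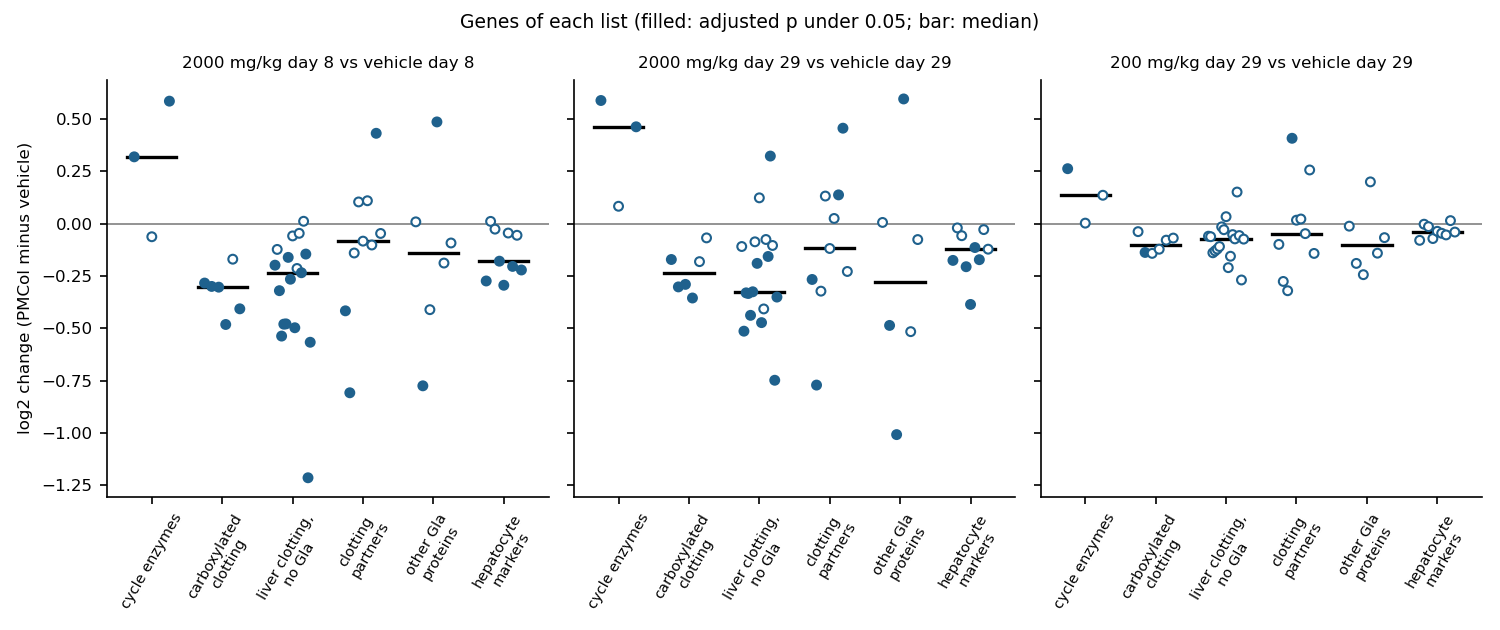
Log2 change, PMCol minus vehicle, of each measured gene of the lists shown. The 3 panels are 2000 mg/kg at day 8, 2000 mg/kg at day 29 and 200 mg/kg at day 29. The lists are cycle enzymes, carboxylated clotting proteins, liver clotting proteins without carboxylation, proteins that bind or oppose the carboxylated factors, carboxylated proteins outside clotting, and hepatocyte markers. Filled points have an adjusted p under 0.05 and bars are list medians. The clotting proteins without carboxylation lie mostly below 0 at 2000 mg/kg (12 of 17 fell at day 8), as do the 6 carboxylated ones.

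Hepatocyte markers, 9 of 10 measured, gave 5 lower and 0 higher calls at day 8 (median −0.18) and 5 lower and 0 higher at day 29 (median −0.12), with 0 called at 200 mg/kg. The rounding of all 9 matches stored values of 8 or more, which held for 0 of 5 lymphocyte markers. Cps1, the mitochondrial enzyme that opens the urea cycle, fell by 0.29 and by 0.39. Alb, albumin, was not called (0.011 at day 8, −0.020 at day 29 and −0.0023 at 200 mg/kg). Of 10 measured transcription factors that govern hepatocyte genes, 5 fell at day 8, 3 fell and 1 rose at day 29, and 1 fell and 1 rose at 200 mg/kg. Onecut1, a factor of liver and bile duct development, fell by 1.44 and by 2.19 at 2000 mg/kg and by 1.35 at 200 mg/kg, the last call being lost in the fit on only the groups compared (adjusted p = 0.0604). Foxa1 fell by 0.78 and by 0.59. The rounding matched stored values of 8 or more in 7 of the 10 factors, and not in Foxa1, while Onecut1 had too few entries to judge. Nr1i3, the nuclear receptor that responds to drugs, rose by 0.38 at 2000 mg/kg and by 0.58 at 200 mg/kg at day 29, and the call at 2000 mg/kg was lost after quantile normalization (adjusted p = 0.0518) and without vehicle animal 4 (adjusted p = 0.0614) or 2000 mg/kg animal 2, 3 or 4.

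Markers of other liver cells moved with some of these comparisons. All 10 Kupffer cell markers fell at day 8 (median −1.03), and their mean lay between −0.66 and 0.10 at 2000 mg/kg, against 0.37 to 1.32 in the vehicle animals. Leaving out 1 animal at a time left 7 to 10 of them called. At day 29, 0 of the 10 were called by limma. Between the vehicle animals of day 29 and those of day 8, all 10 Kupffer markers (median −1.02) and 3 of 4 endothelial markers (median −0.57) were also called lower. That Kupffer count was not firm: it was 3 to 10 when 1 animal was left out. It was 2 in the fit on only the groups compared and 0 at an adjusted p under 0.01. Of 8 stellate cell markers, 3 fell at day 8 and 7 at day 29, when their mean lay between −0.46 and −0.26 at 2000 mg/kg, against 0.099 to 0.46 in the vehicle animals. The Kupffer mean at day 29 lay between −0.80 and 0.49 at 2000 mg/kg, against −0.58 to 0.85 in the vehicle animals. Of other lists, 2 of 4 endothelial, 2 of 5 lymphocyte and 2 of 4 red cell markers fell at day 8 and 0 of each were called at day 29, while 1 of 2 bile duct markers, Epcam, rose on both days (0.82 and 0.88). The mean of the hepatocyte markers lay between −0.13 and −0.054 at 2000 mg/kg at day 29, against 0.016 to 0.073 in the vehicle animals. Their part in the results above was not tested. The rounding matched stored values of 8 or more in 5 of 10 Kupffer, 5 of 8 stellate and 2 of 4 endothelial markers. It did so in 1 of 2 bile duct, 1 of 4 red cell and 0 of 5 lymphocyte markers. With rows centred on 0, whether the remaining markers were at or near no expression cannot be told.

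The rows most like Ggcx were sought by the root mean square difference from it over the 29 animals, after each row was centred. They were Hm13 (0.0867), Ddost (0.0932), Gltpd2 (0.1), Dad1 (0.1) and Plpp5 (0.107), where Ggcx itself varied by 0.234 about its mean. Hm13 encodes a signal peptide peptidase and Ddost a subunit of the oligosaccharyltransferase. The rows most like the mean of the 6 carboxylated proteins were Spp2 (0.0554), Vtn (0.0582), C8g (0.0651), Acox3 (0.067) and Arnt (0.0672), against 0.143 for that mean itself. Vtn encodes vitronectin and C8g a chain of complement.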

How the data were processed

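Liver RNA of 29 rats, 150 ng a sample, was hybridised to Affymetrix whole-transcript arrays, per the labels. The values used are the log2 values as deposited by the authors for 27342 transcript clusters (rows), each row having a median of 0. No source used here states the log base, which was taken as 2, and all folds rest on that. The rounding of all 9 members' values matches stored values of 8 or more. Such rounding does not depend on the log base, so it cannot settle it. PLIER and MAS5 stand in the submitters' processing notes without version or role. The normalization between arrays and any offset are not stated, and an offset would shrink folds of dim genes.

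Rows with 1 symbol in the platform annotation (15097) took that name. One model of the 5 groups was fitted to all rows with limma 3.58.1 in R 4.3.3 (lmFit, eBayes), with Benjamini-Hochberg adjustment over all rows in each comparison, after a test on simulated data. The members and lists were chosen with earlier results of these data known. All members were named, and list genes by the size of a called change, up to 6 a list. Array batches (slide, scan date) were not tested. The replicate numbers did not pair the animals: deviations from the group means correlated with a median r of 0.0099 in 56 same-number pairs and 0.0036 in 280 others. The number of arrays limits the precision.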

Additional observations from a re-analysis of the deposited data

Results flagged for a closer look

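In the vehicle group of day 29, animal 1 lay apart from the other 5 for both enzymes that rose at 2000 mg/kg. Its Vkorc1l1 value was −0.404, where the others lay between −0.174 and −0.056, and its Ggcx value was −0.463, where the others lay between −0.316 and −0.239. Of 50 gene and group sets checked for such a gap, these were the 2 found. Chance flags about 1 set in 20, but both flags come from 1 array and are not independent. The same animal was also the lowest of its group for Vkorc1 (−0.369), F2 (0.079), F7 (0.019), F10 (−0.12), Proc (0.041), Pros1 (−0.17) and Proz (−0.40).

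The effect of 2000 mg/kg on Cyp4f1 differed between the days. It was −0.53 at day 8 and −0.23 at day 29, and the day 29 effect minus the day 8 effect was 0.302 (SE 0.073, 95% interval 0.15 to 0.45, adjusted p = 0.0456, limma). It was the 1 of 41 named genes called in this test. The call was lost under 21 of 32 alternatives, among them quantile normalization, array centring and leaving out any 1 of 16 animals.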

How the results depend on the processing

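The counts of called genes of the set at 2000 mg/kg stayed within 1.5 times their value under all alternatives run (quantile normalization, array centring, rows with 1 symbol, only the groups compared, robust eBayes, array weights, the replicate block, an adjusted p under 0.01, and leaving out each animal). With the replicate block, 7 genes were called at day 8, 6 at day 29, 2 at 200 mg/kg and 4 between the doses, as without it, and it changed no call of the 9 genes. Leaving out 1 animal gave 7 genes at day 8, 5 to 6 at day 29, 4 to 5 between the doses, 0 between the vehicle groups and 0 for the difference between days. At 200 mg/kg 0 genes were called in the fit on only the groups compared, 0 at an adjusted p under 0.01, 1 without vehicle animals 1 and 2 of day 29 (chosen after seeing the data), and 0 to 2 when 1 animal was left out. Of 1197 single-gene alternatives for the 9 genes, 1129 kept direction and side of the threshold, 18 lost a call, 1 gained one and 49 changed sign, all in differences near 0 that were not called. Of 1952 for the 32 named genes of the other lists, 49 lost a call (8 genes), 13 gained one (5 genes) and 8 changed sign. Besides the calls given in the report, Hnf4a and, at an adjusted p under 0.01, Nr1i2 lost their day 8 calls and Rbp4 its day 29 call, while Ttr at day 29 and Serpind1 and Foxa1 at 200 mg/kg gained one.

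Values where the sign turned are as follows, with ranges over leaving out 1 animal. At 200 mg/kg, Vkorc1 was −0.015 after quantile normalization, −0.0052 with array weights, −0.034 without both vehicle animals and −0.063 to 0.057 over the animals. Between the doses, Proz was −0.018 after quantile normalization, −0.0028 after centring, −0.034 with array weights and −0.049 to 0.049. For the difference between days, F7 was −0.00083 with array weights, −0.011 without both vehicle animals and −0.031 to 0.067, Pros1 was 0.0082 with the replicate block and −0.054 to 0.047, and F2 was −0.025 to 0.016. Between the vehicle groups, Vkorc1l1 was 0.040 after quantile normalization, 0.012 with array weights, 0.013 without both vehicle animals and −0.047 to 0.028, Vkorc1 was −0.10 to 0.0011, and Pros1 was −0.028 to 0.050. Of the other lists, at 200 mg/kg Aifm2 was −0.0069 after quantile normalization and −0.035 to 0.072, and Calu was −0.0099 without both vehicle animals and −0.023 to 0.15. The cause was not tested.

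Over all rows, an adjusted p under 0.01 gave 3244 calls against 5096 at day 8, 3754 against 5910 at day 29, 277 against 761 at 200 mg/kg, 1364 against 2704 between the doses, 28 against 212 for the difference between days and 77 against 746 between the vehicle groups. The fit on only the groups compared gave 340 at 200 mg/kg and 136 between the vehicle groups. For the difference between days, quantile normalization gave 102, array weights 673 and leaving out both vehicle animals 620, and between the vehicle groups the last 2 settings gave 1773 and 1374. Leaving out 1 animal gave 4400 to 4802 at day 8, 4791 to 6313 at day 29, 436 (without 200 mg/kg animal 5) to 1102 (without 200 mg/kg animal 1) at 200 mg/kg and 1755 to 2813 between the doses. It gave 76 (without 2000 mg/kg animal 1 of day 8) to 563 (without vehicle animal 2 of day 29) for the difference between days, and 254 to 2141 (the highest again without vehicle animal 2 of day 29) between the vehicle groups. Signal over background was not given, so what dimness limits was not tested.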
